A study of Mus musculus with 6 samples.

Results

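The pyruvate dehydrogenase complex and the enzymes that switch it on and off were followed in liver tumors of mice with and without hepatic Prmt3. The 10 genes were taken by symbol from the 34745 genes listed, with earlier results of these data known. They are the kinases Pdk1, Pdk2, Pdk3 and Pdk4, the phosphatase subunits Pdp1 and Pdp2, and the enzyme subunits Pdha1, Pdhb, Dlat and Dld. All 10 passed the filter on low counts and were among the 13892 genes tested.

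RNA was sequenced from 3 tumors labelled WT, which are Prmt3f/f tumors (floxed Prmt3 without Cre), and from 3 Prmt3LKO tumors, in which Alb-Cre deletes the floxed part of Prmt3. The albumin promoter drives Cre in hepatocytes, so Prmt3 reads from other cells of a tumor can remain. Both groups shared the same tumor induction, with 25 mg/kg diethylnitrosamine (DEN) given to mice 2 weeks old and 10% CCl4 at 0.5 ml/kg from 6 weeks, 2 times a week, and the study used male mice sampled at 26 weeks. The labels do not say whether each tumor came from its own mouse, so p-values measure the spread between these tumors.

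Pyruvate dehydrogenase turns pyruvate into acetyl-CoA inside mitochondria and so commits glucose carbon to the citric acid cycle or to fatty acid synthesis. E1 (Pdha1 and Pdhb) decarboxylates pyruvate, E2 (Dlat) carries the acetyl group on a lipoyl arm, and E3 (Dld) reoxidizes that arm. Pyruvate dehydrogenase kinases, PDHKs, phosphorylate serines of the E1 alpha subunit and switch the complex off, and the phosphatases reverse this. In liver the balance shifts with feeding and fasting, and in tumors high kinase activity leaves more pyruvate for lactate. The study examined arginine methylation of PDHK1, the product of Pdk1, by PRMT3. Transcript levels measure neither methylation nor phosphorylation.

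The stretch of coding sequence that holds the PDHK1 arginines the study mutated is shown for the 4 kinases, because the kinases differ there. The study numbers these arginines in a human protein. They were placed at codons 341 and 346 of mouse Pdk1, numbered from the start codon. The search was for a pair of arginines, spaced as in the study's numbering, ahead of a motif the kinases share. No other check of this placement was made. Capitals mark the arginine codons at the 2 aligned positions, and the sequences come from GENCODE M21 transcripts on GRCm38.
Pdk1, codons 340 to 360: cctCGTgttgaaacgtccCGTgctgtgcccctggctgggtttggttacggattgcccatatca
Pdk2, codons 314 to 333: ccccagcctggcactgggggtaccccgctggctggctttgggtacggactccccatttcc
Pdk3, codons 311 to 331: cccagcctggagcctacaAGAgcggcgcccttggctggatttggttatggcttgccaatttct
Pdk4, codons 317 to 337: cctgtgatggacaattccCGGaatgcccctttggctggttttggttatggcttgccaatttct

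Pdk1 carried an arginine codon at both positions, which the search for the site required. Pdk3 and Pdk4 had one at the second position only, and Pdk2 had none, with a gap in the alignment at the second position. The whole predicted proteins were 62.1% to 69.5% identical in pairs, with PDHK1 68.8% identical to PDHK2. The Pdk1 stretch is coding sequence on the plus strand, in exon 9 (chr2:71895767-71895799) and exon 10 (chr2:71897647-71897676). The Pdk2 stretch lies on the minus strand in exons 9 (chr11:95028479-95028508) and 10 (chr11:95027949-95027978).

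On the substrate side, the E1 alpha gene Pdha1 holds the serine codons 293 and 300, which the kinases phosphorylate. They are given in capitals below to show the site at which kinases and phosphatases meet, which spans exons 9 (chrX:160126194-160126228) and 10 (chrX:160124615-160124627) on the minus strand.
Pdha1, codons 289 to 304: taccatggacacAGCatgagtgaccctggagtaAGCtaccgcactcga

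Total counts ranged from 18440244 to 27976598 per tumor, and Alb took 11% to 16.1% of them. Prmt3 itself was 6.60, 8.49 and 10.2 CPM (reads per library scaled to a common size by TMM) in Prmt3f/f tumors 7, 66 and 71 and 2.80, 2.03 and 3.82 CPM in Prmt3LKO tumors 92, 93 and 94. The groups did not overlap, but the difference did not pass the adjusted test (log2 fold change -1.55, adjusted p = 0.592). Summed hepatocyte markers (9 of 10 listed were in the data) were 136900 to 192400 CPM in Prmt3f/f and 146700 to 161900 CPM in Prmt3LKO tumors. Most of this sum was Alb, so it says little of the other hepatocyte markers. Summed T cell markers were lower in every Prmt3LKO tumor (7.59 to 24.1 against 32.1 to 41.4 CPM), as were macrophage markers (447.1 to 605.7 against 627.4 to 1210 CPM). At an unadjusted p under 0.05, 6 of 10 T cell and 6 of 10 macrophage markers were lower, against 4.37% of all genes tested. No gene of these 3 lists was at 0 throughout. Cd2 (35 to 58 counts in Prmt3f/f and 8 to 25 in Prmt3LKO tumors) passed the filter only through the Prmt3f/f tumors. The T cell count is therefore partly set by the filter and cannot be compared with the share over all genes. The T cell count was 3 without tumor 7, 66, 92 or 94, and the macrophage count was 3 without tumor 66 or 93 and 4 without tumor 92. Summed kidney markers were higher in every Prmt3LKO tumor, at 9.22 to 13.8 against 3.71 to 4.83 CPM. Of 10 listed, 4 were tested, and 3 of these were higher at that level (2.2% of all genes). Slc34a1 (2 to 3 counts in Prmt3f/f and 14 to 53 in Prmt3LKO tumors) and Umod (6 to 8 against 20 to 35) passed the filter only through the Prmt3LKO tumors. The count of 3 is therefore partly set by the filter and cannot be compared with the share over all genes. Prmt3f/f tumor 7 stood apart with 4239 CPM of summed cholangiocyte markers, most of it Spp1, against 215.5 to 1012 CPM elsewhere. Spp1 took 88284 of the 89185 counts of that list in tumor 7 and 20966 of 22221 in tumor 66. Tumor 7 also had 5.18 CPM of muscle markers (3 of 8 at 0 throughout) against at most 0.547. The part of these differences in the results was not tested, and in bulk tumors fewer cells of a type and less RNA per cell cannot be told apart.

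A gene was called when it reached both an adjusted p under 0.05 in edgeR's quasi-likelihood test and a fold of 2 or more in either direction. None of the 10 genes was called, and neither was any other gene (0% of those tested). DESeq2 called 44 genes lower and 10 higher over all genes and the exact test of edgeR 35 and 5, and neither these tests nor limma-voom called any of the 10 genes. At an unadjusted p under 0.05, 2 of the 10 genes were lower in Prmt3LKO tumors, Pdk4 and Pdp1, against 4.37% of all genes tested. No member was higher at that level, against 2.2% of all genes. These counts rested on single tumors. No member reached that level without Prmt3LKO tumor 92 or 93, and Pdp1 alone did so with limma-voom, on log2(FPKM + 1), and without Prmt3f/f tumor 66 or Prmt3LKO tumor 94. Without Prmt3f/f tumor 71, Pdp1 was lower and Pdk1 higher at that level, and without Prmt3f/f tumor 7, Pdk4 and Pdp2 were lower. Every Prmt3LKO tumor lay below every Prmt3f/f tumor for 1 member, Pdp1 (6.6% of all genes), and above for 1 member, Pdhb (5.56% of all genes). The median log2 fold change was 0.02 over the 10 genes and 0 over all genes tested. All 4 enzyme subunits had fitted differences above 0 and both phosphatases below 0, while the kinases divided 3 below and 1 above.

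**Figure D1:**
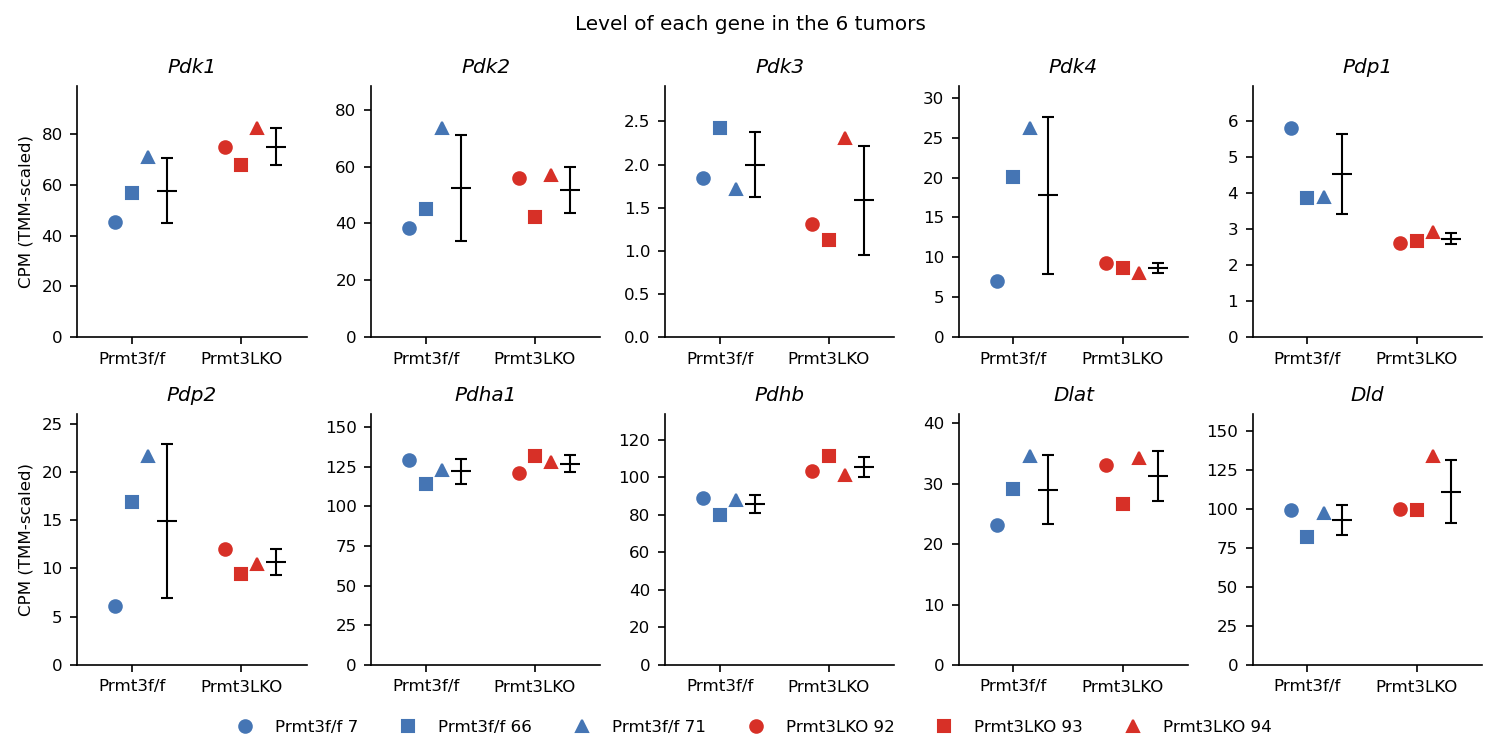
CPM (TMM-scaled, linear axis from 0, a separate scale for each gene) of the 10 genes in each tumor, blue for Prmt3f/f and red for Prmt3LKO, with the group mean and SD in black (n = 3). Pdp1 lies lower and Pdhb higher in all Prmt3LKO tumors, and Pdk4 and Pdp2 are spread widely among Prmt3f/f tumors but not among Prmt3LKO tumors.

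Pdk1 encodes the kinase named by the study. It lies on chromosome 2 (ENSMUSG00000006494, chr2:71873224-71903858). Pdk1 stood at 45.3, 56.9 and 71.02 CPM in Prmt3f/f tumors 7, 66 and 71 and at 74.9, 68.1 and 82.6 CPM in Prmt3LKO tumors 92, 93 and 94. The groups overlapped only in that Prmt3f/f tumor 71 exceeded Prmt3LKO tumor 93. The fitted level was 1.3-fold that of Prmt3f/f tumors (log2 fold change 0.38, standard error 0.19, adjusted p = 0.784, edgeR), and the 95% interval of the fold ran from 0.958 to 1.77. A fold below 0.958 lay outside this interval. It is not adjusted for the number of genes tested and is given for the fit of all tumors only. An exact permutation test, two-sided, gave p = 0.2. The log2 fold change of Pdk1 was 0.22 without Prmt3f/f tumor 7, which had the lowest value, and 0.56 without Prmt3f/f tumor 71, with an unadjusted p of 0.0192 and an adjusted p of 0.567 from edgeR.

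Pdk2, the main isoform of many resting tissues, lies on chromosome 11 (ENSMUSG00000038967). It was the most abundant kinase transcript here once gene length was divided out. In CPM it was below Pdk1 in every tumor except Prmt3f/f tumor 71. It was measured at 38.4, 45.2 and 73.6 CPM in the Prmt3f/f tumors and 56.1, 42.3 and 56.9 CPM in the Prmt3LKO tumors. The Prmt3LKO tumors lay inside the range of the others, and the log2 fold change was -0.02 (95% interval -0.62 to 0.58, adjusted p = 0.997, edgeR). Its sign depended on single tumors: without Prmt3f/f tumor 71 it was 0.31.

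Pdk3, an isoform known best from testis, brain and some tumors, lies on chromosome X (ENSMUSG00000035232) and was scarce. Counts were 40, 52 and 49 in Prmt3f/f tumors and 23, 25 and 46 in Prmt3LKO tumors, or 1.72 to 2.43 and 1.13 to 2.31 CPM. The groups overlapped, and at this depth the 95% interval of the fold spanned 0.433 to 1.46.

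Pdk4 is the isoform that liver and muscle raise in fasting. It is known to respond to PPAR alpha, FoxO factors and glucocorticoids. Pdk4 (ENSMUSG00000019577, chr6:5483351-5496309, minus strand) was at 7.02, 20.1 and 26.2 CPM in Prmt3f/f tumors 7, 66 and 71. In Prmt3LKO tumors 92, 93 and 94 it was at 9.32, 8.71 and 8.09 CPM. Prmt3f/f tumor 7, the one with the highest Spp1, had the lowest value of all 6, and the other Prmt3f/f tumors had the highest. The log2 fold change was -1.03 (standard error 0.42, 95% interval -2.01 to -0.05, adjusted p = 0.742, edgeR), and the exact permutation test gave p = 0.4. Without Prmt3f/f tumor 7 the log2 fold change was -1.42 with an adjusted p of 0.218, and without Prmt3f/f tumor 71 it was -0.64 with an adjusted p of 0.764. Pdk4 was past an unadjusted p of 0.05 in only 1 of the 6 fits that leave out a tumor, the fit without tumor 7, and its unadjusted p was 0.121 with limma-voom and 0.0902 on log2(FPKM + 1). The coefficient of variation was 55.2% among Prmt3f/f tumors and 7.03% among Prmt3LKO tumors. On the log2 scale the SD of Pdk4 among Prmt3f/f tumors was 0.998, at percentile 95.4 of all genes tested, and among Prmt3LKO tumors it was 0.10, at percentile 15.6.

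Pdp1 and Pdp2 are the catalytic subunits of the phosphatases that dephosphorylate E1 alpha and turn the complex back on. Pdp1 is known as the calcium-sensitive one and Pdp2 as the insulin-sensitive one. Pdp1 (ENSMUSG00000049225, chr4:11958184-11966452, minus strand) was at 5.82, 3.87 and 3.90 CPM in Prmt3f/f tumors and at 2.63, 2.66 and 2.92 CPM in Prmt3LKO tumors. All Prmt3LKO tumors were lower, and they lay closer together than the Prmt3f/f tumors. The fitted fold was 0.605 (log2 fold change -0.72, standard error 0.26, 95% interval -1.32 to -0.13, adjusted p = 0.684, edgeR), and the exact permutation p was 0.1, the smallest that 3 tumors against 3 allow. These values rest on 83 to 126 counts per Prmt3f/f tumor and 46 to 59 per Prmt3LKO tumor. Without Prmt3f/f tumor 7, which had the highest value, the log2 fold change was -0.52 with an unadjusted p of 0.0664 from edgeR. Without Prmt3LKO tumor 92 or 93 the unadjusted p was 0.0616 or 0.0578.

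Pdp2 was at 6.14, 16.9 and 21.7 CPM in Prmt3f/f tumors 7, 66 and 71, and at 12.1, 9.43 and 10.4 CPM in Prmt3LKO tumors. As for Pdk4, tumor 7 was the lowest of all and the other Prmt3f/f tumors the highest, with Prmt3LKO tumors between. The log2 fold change was -0.49 (95% interval -1.43 to 0.46, adjusted p = 0.915, edgeR), and it was -0.87 without tumor 7 and -0.11 without tumor 71. The SD among Prmt3f/f tumors was at percentile 94.8 of all genes. Pdpr, which encodes the regulatory subunit of the phosphatase, ranged from 5.54 to 12.2 CPM in Prmt3f/f and from 5.87 to 10.2 CPM in Prmt3LKO tumors, with a log2 fold change of 0.03.

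Among the enzyme subunits, Pdha1 (E1 alpha, the kinase substrate) varied least between the groups, at 129.1, 113.8 and 123.1 CPM against 121.0, 131.9 and 127.7 CPM. The groups overlapped throughout, and the 95% interval of its fold was 0.835 to 1.29. Pdha1 overlaps Map3k15 on the other strand, whose own mean was 15 counts, and use of strand in the counting is not given in the sources used here.

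Pdhb (E1 beta, ENSMUSG00000021748, chr14:8165991-8172992, minus strand) was at 89.1, 80.1 and 87.8 CPM in Prmt3f/f tumors and 103.3, 111.6 and 101.3 CPM in Prmt3LKO tumors. All Prmt3LKO tumors were higher. The difference was small, 1.23-fold (log2 fold change 0.30, standard error 0.13, 95% interval -0.01 to 0.61, adjusted p = 0.766, edgeR, exact permutation p = 0.1), and both groups were tight, with coefficients of variation of 5.65% and 5.16%. When any 1 tumor was left out the log2 fold change of Pdhb stayed between 0.25 and 0.33, and DESeq2 gave 0.30 with an unadjusted p of 0.0402.

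Dlat (E2) ranged from 23.2 to 34.7 CPM in Prmt3f/f and from 26.6 to 34.2 CPM in Prmt3LKO tumors, and the groups overlapped (log2 fold change 0.11, adjusted p = 0.968, edgeR). Dld (E3, shared with the other 2-oxo acid dehydrogenases) was at 99.3, 82.1 and 97.4 CPM against 99.7, 99.1 and 134.1 CPM. Its log2 fold change was 0.26 (95% interval -0.15 to 0.66, adjusted p = 0.890, edgeR), with Prmt3LKO tumor 94 alone far above the others. Without that tumor the log2 fold change of Dld was 0.10. Pdhx, the E3-binding protein, was at 24.3, 19.7 and 22.1 CPM against 24.8, 10.1 and 26.1 CPM, so that Prmt3LKO tumor 93 alone was low. Pdha2, the testis form of E1 alpha, had no count in any tumor, which allows at most 0.163 CPM in the shallowest library, for counting error only.

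**Figure D2:**
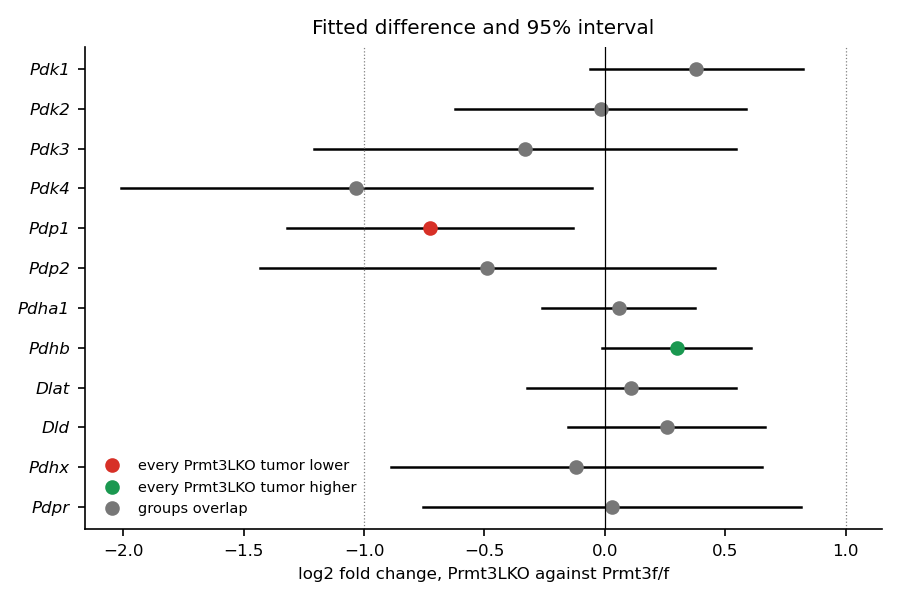
Log2 fold change of Prmt3LKO against Prmt3f/f tumors (x axis) for the 10 genes and the accessory genes Pdhx and Pdpr (y axis), as points with 95% intervals from edgeR (3 tumors per group). Intervals of Pdk4 and Pdp1 alone leave out 0, at unadjusted p-values, and dotted lines mark a 2-fold difference.

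Levels of different genes were compared per length, with the deposited FPKM. Over all 6 tumors Pdhb was highest (52.7 to 78.2 FPKM), and Dld (35.8 to 59.0 FPKM) overlapped with it. Pdha1 (27.3 to 33.7 FPKM) and then Pdk2 (10.1 to 19.2 FPKM) followed, each below all values of the gene before. Pdk1 (4.13 to 7.21 FPKM), Dlat (4.33 to 6.38 FPKM), Pdk4 (1.81 to 6.70 FPKM) and Pdp2 (1.81 to 6.33 FPKM) overlapped with each other. Pdk3 (0.387 to 0.780 FPKM) and Pdp1 (0.277 to 0.664 FPKM) were lowest and overlapped as well. This order depends on the gene lengths used. The FPKM of Pdk1 and Pdp1 rest on gene lengths of 11297 and 9020 bases, as implied by count and FPKM, whereas the transcripts with the longest coding sequence have 5185 and 2635 bases. For Pdp2 the lengths go the other way, with 3485 bases implied and 5692 in the transcript. Pdp1 made up 6.50% to 26.8% of the summed phosphatase FPKM, and 28.0% to 67.2% with transcript lengths, so its place below Pdp2 does not hold in every tumor with those lengths.

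The summed kinase transcripts overlapped between genotypes, whereas the share of them held by Pdk1 did not. Pdk1 made up 24.8%, 22.5% and 19.5% of summed kinase FPKM in Prmt3f/f tumors 7, 66 and 71 and 27.9%, 31.0% and 29.6% in Prmt3LKO tumors 92, 93 and 94. All Prmt3LKO tumors were higher, with a mean difference of 7.29 percentage points. With transcript lengths the shares of Pdk1 were 25.0% to 30.5% and 33.8% to 37.5%, again without overlap. Pdk4 made up 10.9%, 22.4% and 20.4% in Prmt3f/f tumors and 9.85%, 11.3% and 8.23% in Prmt3LKO tumors, where Prmt3f/f tumor 7 lay within the range of the Prmt3LKO tumors. Pdk2 held the largest share in every tumor, from 51.5% to 60.6%, and Pdk3 held 1.76% to 3.75%. The summed kinase level was 16.7, 21.9 and 32.8 FPKM in Prmt3f/f and 22.5, 20.2 and 24.4 FPKM in Prmt3LKO tumors.

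**Figure D3:**
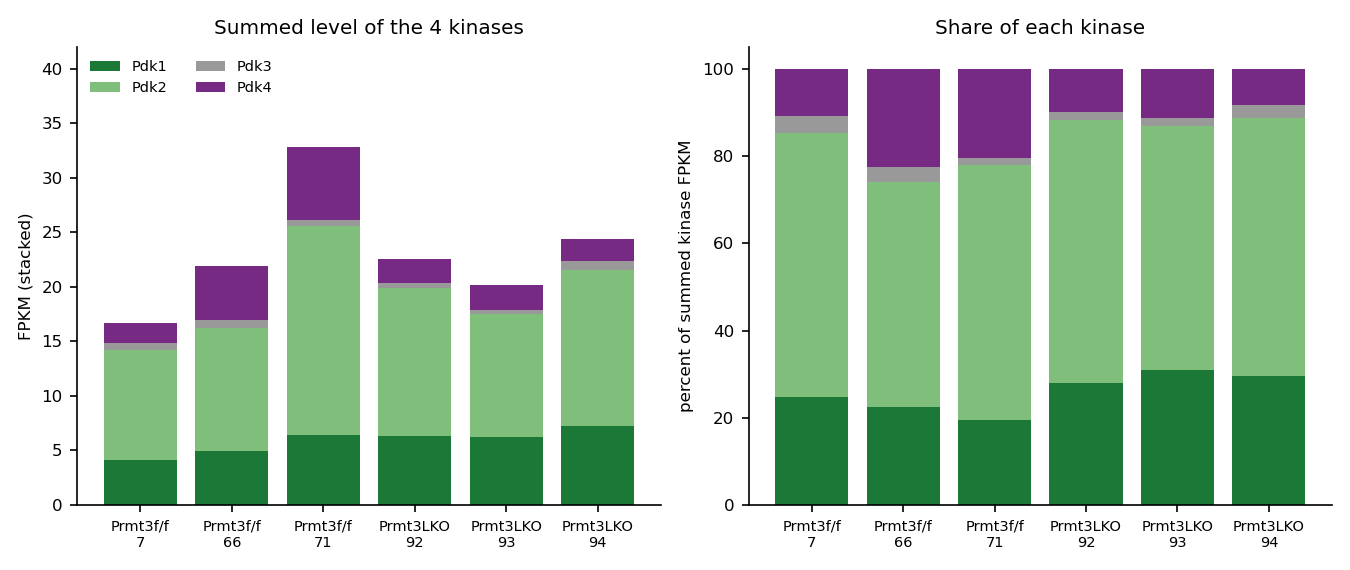
Left, FPKM of the 4 kinases stacked for each tumor (y axis, from 0); right, each kinase as a percent of their sum. The Pdk1 share is 27.9% to 31.0% in Prmt3LKO tumors and 19.5% to 24.8% in Prmt3f/f tumors, and the sum varies most among Prmt3f/f tumors.

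The ratio of summed kinase to summed phosphatase FPKM was 6.73, 4.25 and 4.85 in Prmt3f/f and 6.33, 6.47 and 7.43 in Prmt3LKO tumors, where tumor 7 fell among the Prmt3LKO values. This ratio depended on the gene lengths used. Transcript lengths were tried after the data were seen. With them the ratio was 8.74, 8.56 and 10.4 against 13.7, 13.1 and 15.2, and the groups did not overlap. Within E1, the ratio of Pdhb to Pdha1 was 1.89, 1.93 and 1.96 in Prmt3f/f and 2.34, 2.32 and 2.18 in Prmt3LKO tumors, without overlap, and gene length does not bear on whether they overlap. The ratio of Pdk4 to Pdp2 was nearly constant among Prmt3f/f tumors, at 1, 1.04 and 1.06, although each gene varied over 3-fold there, and it was 0.676, 0.808 and 0.677 in Prmt3LKO tumors. Other ratios computed overlapped between the groups. Summed kinases to Pdha1 ran from 0.511 to 1.07 in Prmt3f/f and from 0.600 to 0.800 in Prmt3LKO tumors. The ratios of Dlat to Pdha1, Dld to Dlat and Pdp2 to Pdp1 overlapped as well. Ratios and shares were given no test. Among single genes tested, 6.6% were lower and 5.56% higher in all Prmt3LKO tumors, but these shares are no background for ratios and shares.

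The 10 genes form 45 pairs, and the likeness of each pair over the 6 tumors is described by the correlation of log2 CPM. Pdk4 and Pdp2 were closest (Pearson r 0.929, Spearman rho 0.943, r 0.918 without the 2 tumors farthest from the median of Pdk4). Of 7986 genes with a mean of at least 10 CPM, 0.701% were as close to Pdk4. Pdk2 and Dlat had the same order in all 6 tumors (r 0.914, 0.986 without the 2 farthest), and 1.59% of genes were as close to Pdk2. Pdk1 and Pdp1 were the most opposed pair (r -0.855), but r was -0.123 without the 2 tumors farthest from the median of Pdk1, so this rested on those tumors. All pairs share libraries and their scaling.

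**Figure D4:**
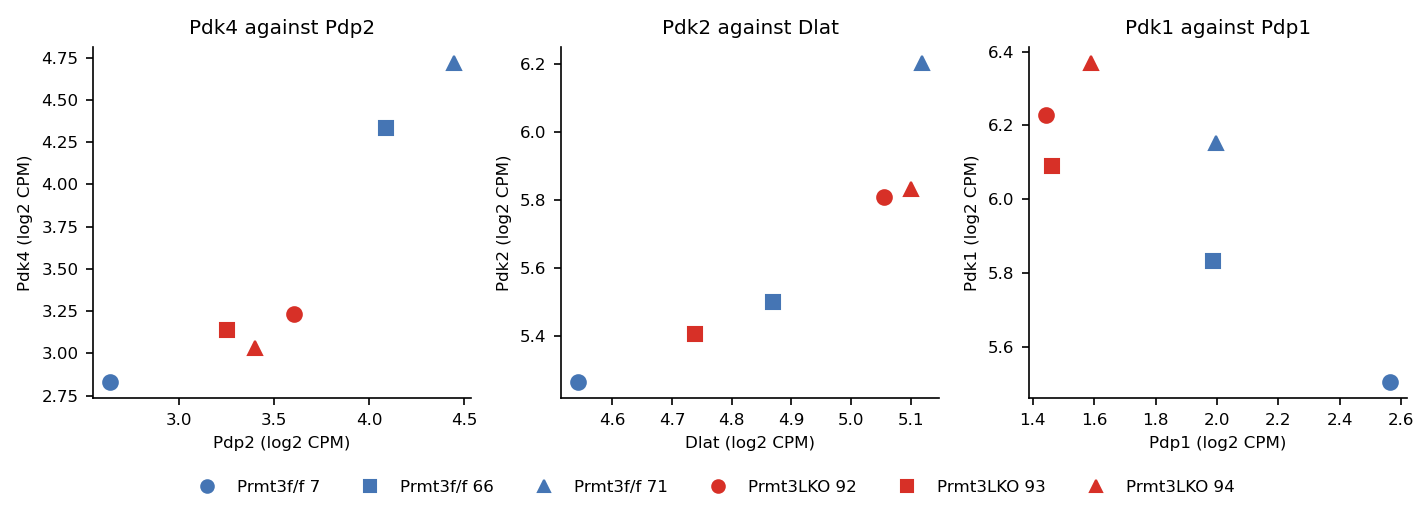
Log2 CPM of one gene against another in the 6 tumors, for Pdk4 and Pdp2, Pdk2 and Dlat, and Pdk1 and Pdp1 (blue Prmt3f/f, red Prmt3LKO). Pdk4 and Pdp2 are both lowest in Prmt3f/f tumor 7 and highest in Prmt3f/f tumor 71, and Prmt3LKO tumors fall together near the low end of Pdk4.

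For single kinases, the 5 genes with the most similar profile over the 6 tumors were listed by Pearson r among the same genes. For Pdk1 they were Noct, Arsa, Slc25a16, Asgr1 and Zfp276, with r from 0.986 to 0.995. Those of Pdk2 were Mast3, Dennd5b, Brap, Megf9 and Rbfa (r 0.982 to 0.987). Those of Pdk4 were Sash1, Txnip, Foxo3, Polr2a and Ssrp1 (r 0.983 to 0.993). Txnip, which encodes a thioredoxin-binding protein that restrains glucose uptake, was at 139.9, 367.1 and 555.7 CPM in Prmt3f/f tumors 7, 66 and 71 and at 215.2, 194.0 and 174.0 CPM in Prmt3LKO tumors. Foxo3, a forkhead factor, was at 33.8, 52.6 and 69.2 CPM against 38.4, 37.6 and 35.8 CPM. Both had the pattern of Pdk4, with tumor 7 lowest and the other Prmt3f/f tumors highest. This follows from their selection by r with Pdk4 over the same 6 tumors and is no separate result. The genes closest to Pdk1 and Pdk2 reached similar r. A link of Foxo3 or Txnip to Pdk4 was not tested.

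The genes around the complex were described through lists written by hand, and no list held a called gene. Lipoylation genes build and attach the lipoyl arm of E2. Of 13 such genes, 2 were higher at an unadjusted p under 0.05 (2.2% of all genes) and none was lower, and the median log2 fold change was 0.04. Glrx5, a mitochondrial iron-sulfur carrier, was at 40.7, 34.6 and 36.8 CPM in Prmt3f/f and 47.8, 45.3 and 78.2 CPM in Prmt3LKO tumors (log2 fold change 0.61, adjusted p = 0.684, edgeR). Lias, the lipoyl synthase, was at 17.4, 16.9 and 16.8 CPM against 19.4, 22.9 and 22.4 CPM (log2 fold change 0.34, adjusted p = 0.742). Both were higher in all Prmt3LKO tumors, as was Isca1, another iron-sulfur protein, so 3 of the 13 genes did not overlap (5.56% of all genes). The count of 2 fell to 0 on log2(FPKM + 1) and without Prmt3f/f tumor 66, Prmt3f/f tumor 71 or Prmt3LKO tumor 94. It fell to 1 without Prmt3LKO tumor 93, with DESeq2, the exact test of edgeR or another scaling, and with no filter beyond 1 count.

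The sister complexes, which handle other 2-oxo acids and share Dld or the lipoyl chemistry, had 1 of 11 genes lower at that level, against 4.37% of all genes. This was Bckdk, the kinase of the branched-chain complex, at 16.5, 14.3 and 10.4 CPM against 8.52, 11.5 and 7.54 CPM (log2 fold change -0.58, adjusted p = 0.744), with overlap. The count was 0 with limma-voom, on log2(FPKM + 1), and without tumor 7, 66, 92 or 94. The median of this list was 0.12.

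Pyruvate can instead be carried into mitochondria, carboxylated, transaminated or reduced to lactate. Of 12 genes of these routes 1 was lower at an unadjusted p under 0.05, Slc16a3, which encodes the lactate exporter MCT4 (2.03, 5.60 and 2.67 against 0.800, 1.67 and 1.86 CPM, log2 fold change -1.24). The share over all genes was 4.37%. Slc16a3 was also the 1 gene of the 12 lower in all Prmt3LKO tumors (6.6% of all genes), and its adjusted p was 0.729 (edgeR). The count at an unadjusted p under 0.05 was 0 with limma-voom, on log2(FPKM + 1), and without tumor 66, 92 or 93. Pcx, the pyruvate carboxylase that competes with the complex for pyruvate, was at 284.3, 440.8 and 531.1 CPM in Prmt3f/f and 656.5, 552.8 and 534.2 CPM in Prmt3LKO tumors. It was the 1 gene of the 12 higher in all Prmt3LKO tumors (5.56% of all genes), narrowly so against tumor 71. The median of the list was 0.08, and that of the 15 citric acid cycle genes was 0.10, none of them at an unadjusted p under 0.05. Among the latter 1 gene, Idh3g, a subunit of isocitrate dehydrogenase, was lower in all Prmt3LKO tumors (31.1 to 37.3 against 39.9 to 44.4 CPM). The share over all genes was 6.6%.

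Lists of known target genes were set beside Pdk1, which HIF-1 is known to induce, and Pdk4. Of 19 HIF targets tested, 5 were higher at an unadjusted p under 0.05 (2.2% of all genes), none was lower, and 4 were higher without overlap (5.56% of all genes). The median was 0.45, against 0 for all genes. Higd1a, a mitochondrial hypoxia gene, was at 15.5, 12.0 and 13.4 CPM against 20.5, 21.2 and 20.5 CPM (log2 fold change 0.60, adjusted p = 0.592). P4ha1, a collagen prolyl hydroxylase, had a log2 fold change of 0.68, and Pgk1, a glycolytic enzyme, 0.56. Egln3, an oxygen sensor, was at 16.4, 7.74 and 16.7 CPM in Prmt3f/f and 17.8, 50.0 and 44.1 CPM in Prmt3LKO tumors. The fifth gene was Hk2, a hexokinase named after its values were seen, with means of 4.34 and 8.89 CPM and overlap. Slc2a1, a glucose transporter also named after its values were seen, had means of 19.3 and 14.4 CPM, so the list did not move as one. When any 1 tumor was left out the number of HIF targets higher at that level was 3 to 7. Without Prmt3LKO tumor 93, and likewise without tumor 94, 1 HIF target was lower. The median fell to 0.26 without Prmt3LKO tumor 93. A part of HIF in the level of Pdk1 was not tested.

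PPAR alpha targets, genes of fatty acid oxidation among them, included 2 of 20 genes lower at an unadjusted p under 0.05, against 4.37% of all genes, and their median was -0.13. The count was 5 without Prmt3f/f tumor 7, 0 without Prmt3LKO tumor 92 and 1 without tumor 66, 93 or 94, and the median ran from -0.29 without Prmt3LKO tumor 94 to 0.002 without Prmt3f/f tumor 71. Vnn1, a pantetheinase, was at 136.1, 80.5 and 99.6 CPM against 72.2, 76.1 and 61.5 CPM (log2 fold change -0.59, adjusted p = 0.684). Cpt1b, the muscle form of the carnitine palmitoyltransferase, rested on 26 to 58 counts in Prmt3f/f tumors and 1 to 14 in Prmt3LKO tumors. Muscle markers were highest in Prmt3f/f tumor 7. Cpt1b passed the filter only through the Prmt3f/f tumors. The count of 2 PPAR alpha targets is therefore partly set by the filter and cannot be compared with the share over all genes. The 15 FoxO and glucocorticoid targets had 1 gene lower (4.37% of all genes), Sesn1 (15.3, 15.96 and 15.3 against 10.97, 8.30 and 12.2 CPM, log2 fold change -0.56, adjusted p = 0.640), and a median of 0.04. That list had 4 genes lower without Prmt3f/f tumor 7, 2 without Prmt3LKO tumor 92 and 3 with DESeq2, and its median was -0.20 without Prmt3f/f tumor 7 and -0.25 without Prmt3LKO tumor 94. Among 16 regulators of these genes 2 were higher (2.2% of all genes) and none was lower, whereas without Prmt3f/f tumor 7, 3 were lower and 1 was higher. They were Pparg, a lipid-sensing receptor (7.34, 5.04 and 5.52 against 11.6, 15.1 and 9.05 CPM, log2 fold change 1, adjusted p = 0.592), and Esrra, an orphan receptor of mitochondrial genes (25.1 to 30.8 against 33.4 to 36.9 CPM).

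**Figure D5:**
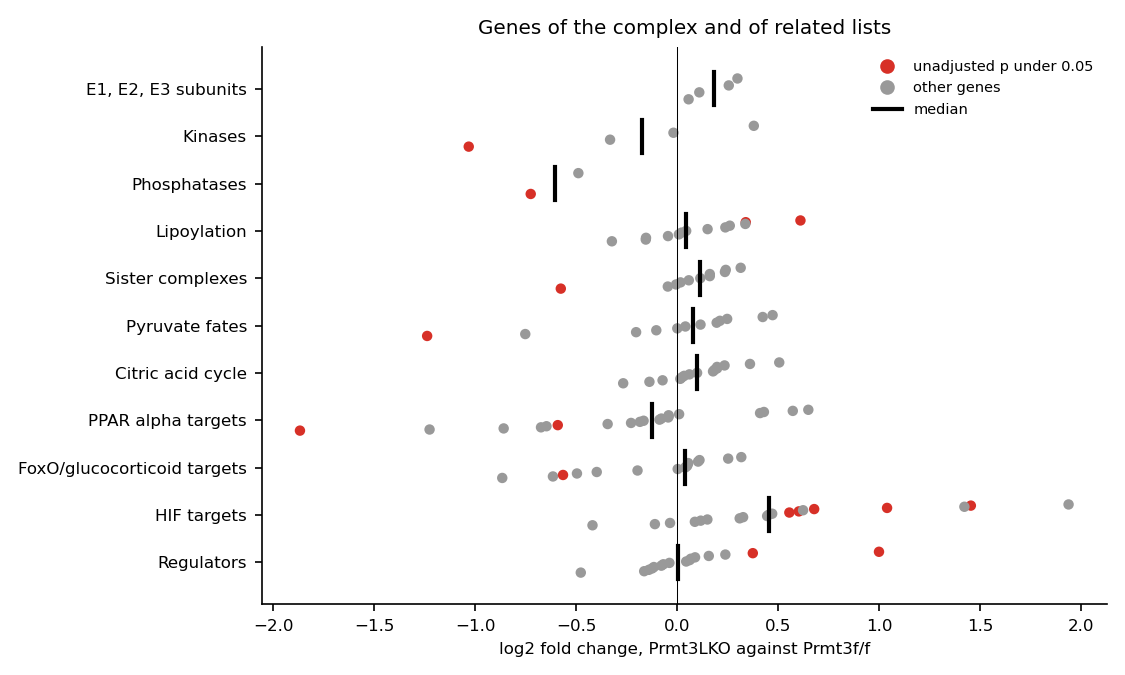
Log2 fold change of Prmt3LKO against Prmt3f/f tumors (x axis) for each tested gene of the complex, its kinases and phosphatases and of 8 related lists (y axis), with genes at an unadjusted p under 0.05 in red and list medians as black bars. HIF targets have a median of 0.45 and the other related lists lie between -0.13 and 0.12.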

How the data were processed

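RNA-seq of 3 Prmt3f/f and 3 Prmt3LKO tumors was used. Per the paper, the authors mapped read pairs to the GRCm38 genome, and the submitters' processing notes name HISAT2 2.0.4, StringTie 1.3.0 and bcl2fastq 2.19. The authors deposited a whole-number count and an FPKM for each gene and tumor. The counting tool, annotation and strand setting are not given in the sources used here. Groups were taken from the genotype labels.

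Counts were filtered with filterByExpr (minimum count 10, minimum total 15), TMM-scaled and compared by glmQLFTest in edgeR 4.0.16 (R 4.3.3), with Benjamini-Hochberg adjustment over all 13892 genes tested. Log2 CPM used a prior count of 2, and the exact permutation tests were two-sided. Alternatives were DESeq2 1.42.0, limma-voom (limma 3.58.1), the exact test of edgeR, other scalings and filters, log2(FPKM + 1), and each tumor left out. Sums of marker lists were divided by total count. Kinase proteins were translated and aligned with Biopython 1.88. The test was tried on simulated data.

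The genes and lists were chosen with earlier results of these data known. Named list genes are at most 4 per list, with an unadjusted p under 0.05 or groups that do not overlap, smallest p first. The 5 genes most like Pdk1, Pdk2 and Pdk4 were taken by Pearson r.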

Additional observations from a re-analysis of the deposited data

How the results depend on the processing

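None of the 10 genes was called under any alternative, and the smallest adjusted p among them ranged from 0.218 without Prmt3f/f tumor 7 to 1 without Prmt3f/f tumor 66. Over all genes, 2 were called lower with no filter beyond 1 count, 44 lower and 10 higher with DESeq2, and 35 lower and 5 higher with the exact test of edgeR, against 0 in the quasi-likelihood test. Only 2 genes turned direction, both with fitted differences near 0: Pdk2 was 0.038 with limma-voom, 0.001 on log2(FPKM + 1), and between -0.21 and 0.31 with each tumor left out, and Dlat was between -0.035 and 0.26 with each tumor left out. The difference in the Pdk1 share of the kinases was 9.60 percentage points on CPM in place of FPKM, and 5.91 to 8.56 with each tumor left out. That of Pdk2 was -2.53 percentage points on CPM, where length is not divided out, against 1.59 on FPKM. With transcript lengths, an alternative chosen after the data were seen, these differences were 7.55 and -1.07. The median of all genes moved by at most 0.03 on the log2 scale under another scaling. No paired analysis was possible because the groups share no replicate numbers. With 3 tumors in each group, the number of tumors limits the precision, and for Pdk3 and Pdp1 the depth does too.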
